A study of Homo sapiens with 6 samples.

Results

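The genes described here are 50 genes of G2 and mitosis, chosen by name and found by Entrez gene ID in the RNA-seq tables of A549 cells, a human lung adenocarcinoma line. All 50 were among the 20824 genes listed in any library and among the 14812 that passed the filter on low counts. The cells carried a scrambled control shRNA (scramble, which the labels treat as wild type) or an shRNA against C19orf12 (knockdown), with 3 libraries of polyadenylated RNA in each group and 10229890 to 10647587 estimated counts per library. Titles of all 3 knockdown libraries carry the same shRNA name. Separate cultures are not stated for the replicates, and each p-value therefore covers only how much these libraries vary. No treatment, time point or cell cycle sorting is given, and in bulk RNA fewer cells in G2 and mitosis cannot be told apart from less RNA per cell.

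C19orf12, the targeted gene, was at 41.1 to 63.3 CPM (counts scaled to a common library size by TMM) across the scramble group and at 24.2 to 26.4 CPM across the knockdown group, without overlap. Values in each library are given below in the order of replicates 1, 2 and 3. Markers of A549 were high in every library, with the keratin KRT18 and the reductase AKR1B10 at no less than 1353 and 3321 FPKM (fragments scaled for transcript length and depth), while the alveolar genes SFTPC and SFTPA1 and the lung factor NKX2-1 were at 0.18 FPKM or less. SFTPB, another surfactant gene, was at 0.78 to 1.22 FPKM, and the epithelial genes EPCAM and KRT19 did not exceed 1.78 FPKM. The summed level of 14 A549 and lung epithelial markers was 10677 to 11938 FPKM in scramble and 14964 to 15114 FPKM in knockdown libraries, with KRT8 and KRT18 higher in knockdown. Of 7 fibroblast markers only COL1A1 passed 1 FPKM, and the sum was 6.57 to 7.75 FPKM in scramble and 4.08 to 4.5 FPKM in knockdown. The sums of 4 endothelial markers and of 3 erythroid markers stayed under 1 FPKM. The 7 leukocyte markers summed to 33 to 34.5 FPKM in scramble and 35 to 39.4 FPKM in knockdown, nearly all from CD68 and LYZ. The part of any of these in the results below was not tested.

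Entry into mitosis is driven by cyclin B bound to CDK1, which is held back by WEE1 and released by the CDC25 phosphatases. Polo and Aurora kinases then build the spindle, the checkpoint proteins hold anaphase until every kinetochore is attached, and CDC20 and the E2 enzymes UBE2C and UBE2S let the anaphase promoting complex destroy securin and the B cyclins. The genes are transcribed in a wave late in the cell cycle, under B-MYB and FOXM1 acting with the MuvB core, and are silenced in resting cells, so they serve in tumours as markers of proliferation.

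Promoters of these genes are known for a shared layout, and 5 of them are shown because their genes lay on both sides of the scramble level. Each line gives the 130 bases that end at the base before the annotated start, from RefSeq on GRCh38.p14, read along the gene. Capitals mark the core of the cell cycle homology region, TTTGAA or TTTAAA, which binds MuvB complexes, and the CCAAT box of NF-Y, both searched on both strands (a CCAAT on the other strand reads ATTGG, and in MKI67 a CCAAT box and a homology region overlap).
CCNB1, chr5:69167020-69167149, plus strand: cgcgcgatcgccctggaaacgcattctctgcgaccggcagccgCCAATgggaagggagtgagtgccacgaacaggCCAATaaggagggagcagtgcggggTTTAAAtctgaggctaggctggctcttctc
CCNB2, chr15:59105016-59105145, plus strand: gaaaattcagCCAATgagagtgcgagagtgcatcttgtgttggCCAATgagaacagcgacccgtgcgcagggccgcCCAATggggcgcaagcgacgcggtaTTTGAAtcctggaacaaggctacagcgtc
PLK1, chr16:23678759-23678888, plus strand: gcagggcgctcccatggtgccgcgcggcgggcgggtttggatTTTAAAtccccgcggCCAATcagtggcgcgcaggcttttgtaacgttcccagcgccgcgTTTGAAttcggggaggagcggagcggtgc
CDC25C, chr5:138331805-138331934, minus strand, 1 of 4 annotated starts: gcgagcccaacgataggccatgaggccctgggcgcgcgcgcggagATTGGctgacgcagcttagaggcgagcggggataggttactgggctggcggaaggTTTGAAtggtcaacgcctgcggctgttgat
MKI67, chr10:128126424-128126553, minus strand: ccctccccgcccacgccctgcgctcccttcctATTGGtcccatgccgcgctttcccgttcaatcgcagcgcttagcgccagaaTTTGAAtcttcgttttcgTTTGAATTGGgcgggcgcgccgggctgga
A homology region began 29 or 30 bases before the start in all 5. In CCNB2 the CCAAT boxes began 120, 87 and 54 bases before it, and in CCNB1 they began 87 and 55 bases before it.

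RefSeq gave a window from 250 bases before to 50 bases after a start for 41 of the 50 genes. In 34 of these 41 a window held the homology core, in 31 a CCAAT box and in 25 both in the same window (61%). Among the 11612 tested genes with a window, 21.5% held the core, 42.8% a CCAAT box and 9.04% both. With scramble replicate 3 left out, as described below, 8 of the 25 genes with both motifs were higher and 7 lower in knockdown by the edgeR test, where 25.7% of all genes were higher and 23.8% lower. Of the 16 genes whose windows did not hold both, 1 was higher and 8 were lower, and whether these splits differ was not tested. CCNB1 and CCNB2 hold both motifs and were called in opposite directions in that fit, while neither was called with all 6 libraries. A match is a description of these letters and not of a bound site.

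Few of the 50 genes passed the test with all 6 libraries. By edgeR's quasi-likelihood test with Benjamini-Hochberg adjustment over all genes, 2 of 50 (4%) were called at an adjusted p under 0.05, against 11.5% of all 14812 genes. Both fell in knockdown, where 5.64% of all genes fell. They were UBE2C, the E2 enzyme that starts ubiquitin chains for the anaphase promoting complex, and CDC25B, the phosphatase that first activates cyclin B and CDK1. No member rose by edgeR with all 6 libraries, where 5.89% of all genes did. At an unadjusted p under 0.05 there were 7 members, 3 of them higher, against 25.4% of all genes, and DESeq2 and limma-voom called 0 higher as well. The median log2 fold change was 0.06 over the 50 genes and 0.02 over all genes tested. Of the log2 fold changes, 29 were above 0 and 21 below. The groups did not overlap for 17 members, against 37.0% of all genes, with 7 higher (14%, against 18.4% of all genes) and 10 lower (20%, against 18.6%).

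Scramble replicate 3 stood apart, and the 50 genes show how. It lay below the other 5 libraries for 26 members and above them for 20, that is for 52% and 40%, where the shares over all genes were 34.9% and 38.7%. Among members with a transcript GC content under 45%, 25 of 26 were lower in scramble replicate 3 than in both other scramble libraries, by a median of 0.93 on the log2 scale, against a median shift of -0.81 over all genes in that range. Among members at 50% or more, 15 of 15 were higher, by a median of 0.52, where all genes had 0.46. Across the 50 genes the shift correlated with GC content at r = 0.857 (Spearman 0.812) and with log transcript length at -0.507 (Spearman -0.555), as a description over genes that share 1 library. Over all genes the correlation with GC content was 0.71. MKI67 went against this trend. At 48.3% GC it was 1.24 lower on the log2 scale in scramble replicate 3, as far as the AT-rich TOP2A, SMC4 and ASPM, and its transcripts are the longest of the 50 at 12219 bases. CCNB1 went the other way, 0.25 higher at 43.2% GC.

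**Figure D1:**
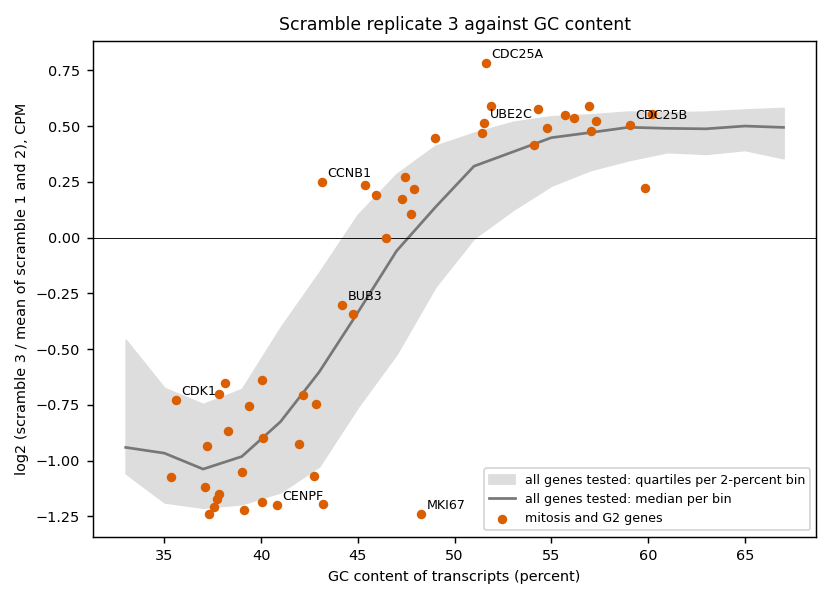
Each orange point is 1 of the 50 genes, with the GC content of its transcripts in percent on the horizontal axis and the log2 ratio of scramble replicate 3 to the mean of scramble replicates 1 and 2 on the vertical axis. The grey line and band are the median and quartiles of all genes tested in bins of 2 percentage points. Most members follow the grey line from about -1 at low GC to 0.5 at high GC, while MKI67 lies far below it.

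**Figure D2:**
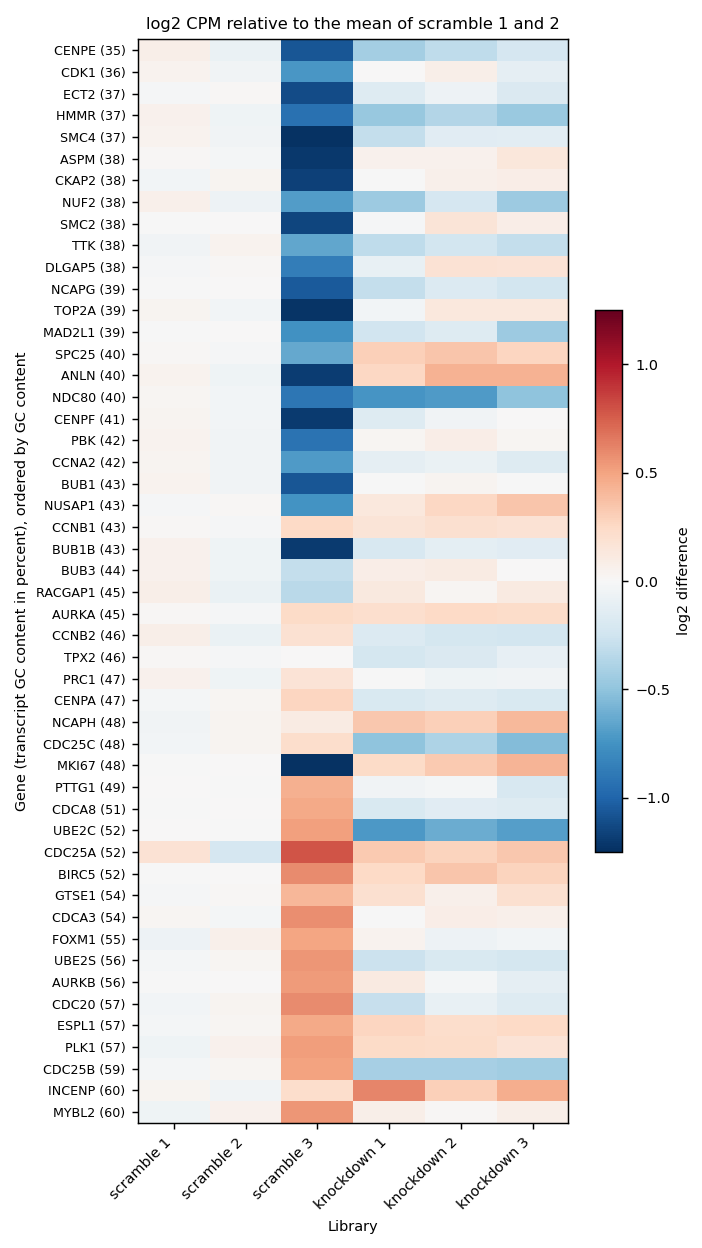
Rows are the 50 genes ordered by transcript GC content (percent in brackets), columns are the 6 libraries, and colour is the log2 difference in CPM from the mean of scramble replicates 1 and 2 (blue lower, red higher). The column of scramble replicate 3 turns from blue at the top to red at the bottom, and the 3 knockdown columns resemble each other gene by gene.

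The comparison was also made with the other 5 libraries, and all values called "without scramble replicate 3" come from that fit. The spread between replicates, as a common coefficient of variation, fell from 18.9% to 2.97% on leaving that library out, so small differences passed there. Of the 50 genes 29 (58%) were called, against 49.5% of all genes. There were 11 higher members, against 25.7% of all genes, and 18 lower members, against 23.8%. The median log2 fold change was -0.01. Without that library the groups did not overlap for 35 members, 14 higher (28%) and 21 lower (42%), against 64.8%, 32.9% and 31.9% of all genes. BUB1B, NCAPG, SMC4 and ECT2 were called lower there but had log2 fold changes above 0 with all 6 libraries. Only 2 of the 29 changed by 1.5-fold or more, UBE2C and NDC80, where 16.3% of all genes were called and changed as much. A correction for GC content and length, added to the fit of all 6 libraries, called 20 of 50 (40%, against 34.5% of all genes), with 8 higher and 12 lower, against 19.1% and 15.4%. With the correction and without scramble replicate 3 there were 31 (62%, against 50.5% of all genes), 15 higher and 16 lower, against 26.7% and 23.8%. The corrected fit of all 6 libraries and the uncorrected fit without scramble replicate 3 both called 16 members in the same direction. The share of all genes called in both was not computed, so whether 16 of 50 is many cannot be told. Higher in both were PLK1, NUSAP1, INCENP, SPC25 and ANLN. Lower in both were CCNB2, CDC25B, CDC25C, TPX2, HMMR, CENPA, NDC80, NUF2, CDC20, UBE2C and UBE2S.

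**Figure D3:**
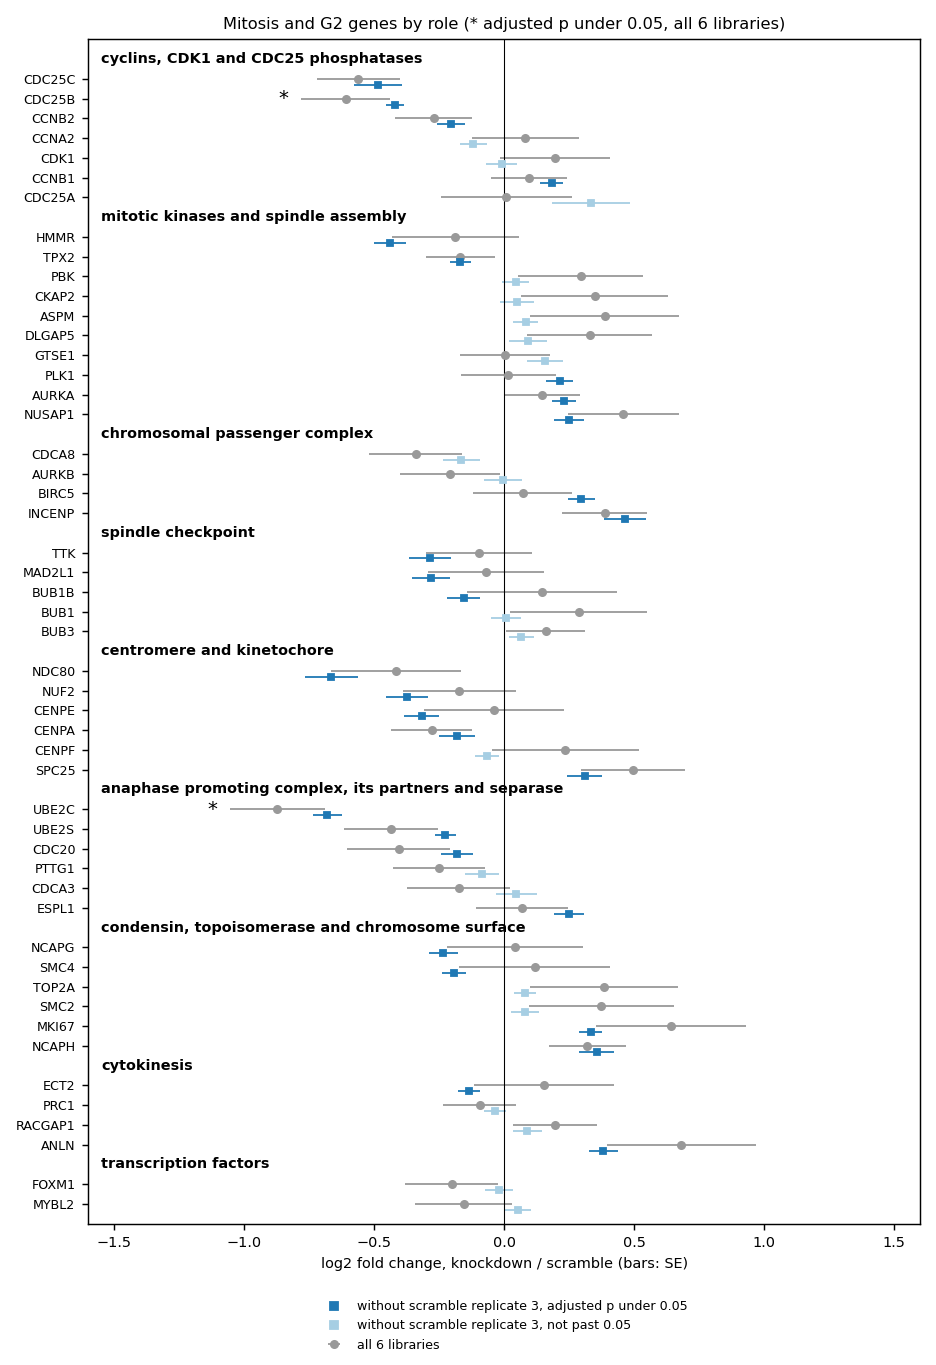
The horizontal axis is the log2 fold change of knockdown over scramble with its SE, for each of the 50 genes grouped by role. Grey circles are from all 6 libraries, squares from the fit without scramble replicate 3, dark where the adjusted p was under 0.05. The 2 asterisks mark CDC25B and UBE2C, and the grey error bars are longer than the blue ones for every gene.

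Among the cyclins, CDK1 and the CDC25 phosphatases, CDC25B and CDC25C were lower in knockdown. The changes of the cyclins and CDK1 were smaller, with CCNB2 called lower and CCNB1 called higher without scramble replicate 3. CDC25B measured 462, 480 and 669 CPM in the scramble group and 353, 354 and 348 CPM in the knockdown group. All knockdown values lay below all scramble values, and scramble replicate 3 was the highest. By edgeR the gene fell by 0.61 on the log2 scale (SE 0.17, adjusted p = 0.0493). Leaving out scramble replicate 3 gave -0.42 (adjusted p = 6.97e-10). With all 6 libraries the call was lost by limma-voom (adjusted p = 0.0594), with no filter on low counts (0.0513) and without scramble replicate 2 (0.0631) or knockdown replicate 1, 2 or 3 (0.194, 0.193 and 0.204). CDC25C, which keeps CDK1 active at mitotic entry, measured 24.0, 25.1 and 28.6 CPM in scramble and 17.2, 18.7 and 16.7 CPM in knockdown, again without overlap. With all 6 libraries edgeR gave -0.56 (adjusted p = 0.0516), and leaving out scramble replicate 3 gave -0.48 (adjusted p = 0.000156). Under RLE and upper-quartile scaling CDC25C was called with all 6 libraries too (adjusted p = 0.045 and 0.047).

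CDC25A, the phosphatase that also acts at the start of S phase, was the least abundant member, at 9.29, 6.96 and 14.3 CPM in scramble and 10.3, 9.99 and 10.4 CPM in knockdown. The scramble libraries surrounded the knockdown libraries, and the log2 fold change was 0.01 (adjusted p = 0.99 by edgeR). Cyclin B1 (CCNB1) was at 133, 129 and 156 CPM in scramble and 147, 151 and 149 CPM in knockdown. It did not pass with all 6 libraries (0.09, adjusted p = 0.749 by edgeR) but was higher without scramble replicate 3 (0.18, adjusted p = 0.0016). Cyclin B2 (CCNB2) was at 108, 97.0 and 117 CPM in scramble and 91.2, 88.3 and 87.7 CPM in knockdown, with all knockdown values lower. It did not pass with all 6 libraries (-0.27, adjusted p = 0.294 by edgeR) and was lower without scramble replicate 3 (-0.20, adjusted p = 0.00348). With the GC and length correction CCNB2 was called lower with all 6 libraries too (-0.30, adjusted p = 0.0161). CCNB1 was not called in that corrected fit (-0.04, adjusted p = 0.87 by edgeR). Cyclin A2 (CCNA2), at 99.0, 93.8 and 59.0 CPM in scramble and 89.2, 91.3 and 85.9 CPM in knockdown, passed in neither fit. CDK1, the kinase itself, was at 88.3, 83.0 and 51.5 CPM in scramble and 85.9, 90.1 and 79.4 CPM in knockdown. Apart from scramble replicate 3 these values overlapped, and without it edgeR gave -0.01 (SE 0.06, adjusted p = 0.912).

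Of the 6 genes around the anaphase promoting complex, 1 fell with all 6 libraries, and without scramble replicate 3 edgeR called 3 lower and 1 higher. Of 16 other genes of the complex and its regulators, that fit called 4 higher and 3 lower. Over all genes it called 25.7% higher and 23.8% lower. UBE2C measured 97.5, 96.4 and 139 CPM in scramble and 58.8, 62.7 and 60.1 CPM in knockdown. Group means were 111 ± 24.0 CPM and 60.5 ± 1.99 CPM (SD over 3 libraries). No knockdown library reached the lowest scramble library. UBE2C fell by 0.87 on the log2 scale (SE 0.18, edgeR adjusted p = 0.0144), the largest size among the 50 in that fit. Leaving out scramble replicate 3 gave -0.68 (adjusted p = 5.83e-10). Among the alternatives the call was lost without knockdown replicate 1, 2 or 3 (adjusted p = 0.093, 0.0792 and 0.0923), settings in which edgeR called 0 members (3 at an unadjusted p under 0.05 in each) and 5.09%, 4.93% and 4.85% of all genes. UBE2S, the E2 enzyme that lengthens the chains UBE2C begins, was at 231, 240 and 345 CPM in scramble and 195, 206 and 202 CPM in knockdown. CDC20, which brings substrates to the complex, was at 73.7, 77.5 and 114 CPM in scramble and 61.8, 70.7 and 67.6 CPM in knockdown. Neither passed with all 6 libraries (-0.43 and -0.41, adjusted p = 0.169 and 0.237 by edgeR), and both were lower without scramble replicate 3 (-0.23 and -0.18, adjusted p = 6.81e-05 and 0.0187). Securin (PTTG1), the inhibitor of separase, measured 60.9, 60.3 and 82.9 CPM in scramble and 58.9, 59.8 and 52.8 CPM in knockdown, without overlap, and passed in neither fit. Adding the GC and length correction to the fit without scramble replicate 3 gave a call (-0.18, adjusted p = 0.0163). Separase itself (ESPL1) was higher without scramble replicate 3 (0.25, adjusted p = 0.00114 by edgeR), and CDCA3, a partner in the destruction of WEE1, was at 0.05 (adjusted p = 0.668).

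The mitotic kinases and spindle genes split by gene. PLK1, the polo kinase, was at 86.7, 93.4 and 130 CPM in scramble and 106, 106 and 101 CPM in knockdown. AURKA, the Aurora kinase of the spindle poles, was at 104, 102 and 122 CPM in scramble and 119, 123 and 121 CPM in knockdown. In both genes scramble replicate 3 was above or within the knockdown values, and the log2 fold changes were 0.02 and 0.15 (adjusted p = 0.97 and 0.6 by edgeR) with all 6 libraries. Without that library they were 0.21 and 0.23 (adjusted p = 0.00171 and 0.000314). TPX2, which activates AURKA on spindle microtubules, was lower without scramble replicate 3 (-0.17, adjusted p = 0.00185), and scramble replicate 3 did not differ from the others for this gene (shift 0.00 on the log2 scale). HMMR, a spindle assembly factor, was lower (-0.44, adjusted p = 2.21e-06 by edgeR without scramble replicate 3) and NUSAP1, a microtubule bundler, higher (0.25, adjusted p = 0.00118). PBK, GTSE1, DLGAP5, ASPM and CKAP2, the other members of this group, did not pass in either fit, and with the GC and length correction and without scramble replicate 3 DLGAP5 (0.17, adjusted p = 0.0463) and ASPM (0.21, adjusted p = 0.000455) were higher. With all 6 libraries the correction called ASPM (0.22, adjusted p = 0.0248) and not DLGAP5 (0.21, adjusted p = 0.113). ASPM, the spindle pole protein, measured 120, 117 and 50.9 CPM in scramble and 123, 123 and 131 CPM in knockdown, so that its log2 fold change of 0.39 with all 6 libraries (adjusted p = 0.46) became 0.08 without scramble replicate 3.

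In the chromosomal passenger complex, which corrects wrong kinetochore attachments, the scaffold and survivin were higher without scramble replicate 3 and the kinase was not called. INCENP, the scaffold, was at 38.5, 36.4 and 43.8 CPM in scramble and 57.2, 46.2 and 51.6 CPM in knockdown, without overlap (0.46, adjusted p = 4.30e-05 by edgeR without scramble replicate 3, and 0.39, adjusted p = 0.176 with all 6). Survivin (BIRC5) was at 87.7, 88.1 and 132 CPM in scramble and 105, 112 and 107 CPM in knockdown (0.30, adjusted p = 4.61e-05 without scramble replicate 3). With all 6 libraries BIRC5 was not called (0.07, adjusted p = 0.861 by edgeR), nor with the GC and length correction added (0.19, adjusted p = 0.122). AURKB, the kinase of the complex, was at 41.3, 41.6 and 60.3 CPM in scramble and 44.8, 40.7 and 38.4 CPM in knockdown (-0.01, adjusted p = 0.964 without scramble replicate 3). For borealin (CDCA8) the knockdown libraries lay below all scramble libraries, but the gene passed in neither fit (-0.34 and -0.16, adjusted p = 0.281 and 0.0578). With the GC and length correction it was called lower, both with all 6 libraries (-0.24, adjusted p = 0.0353) and without scramble replicate 3 (-0.20, adjusted p = 0.0194).

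Kinetochore genes included the member with the second largest decrease without scramble replicate 3. NDC80, which grips microtubules, measured 23.1, 22.2 and 11.9 CPM in scramble and 13.4, 13.7 and 15.8 CPM in knockdown. The knockdown libraries lay between scramble replicate 3 and the other scramble libraries, so the groups overlapped. By edgeR the values were -0.42 (adjusted p = 0.348) with all 6 libraries, -0.66 (adjusted p = 1.17e-05) without scramble replicate 3 and -0.53 (adjusted p = 0.012) with all 6 and the GC and length correction. NUF2, its partner in the same complex, showed the same order, with -0.17 (adjusted p = 0.687) and -0.37 (adjusted p = 0.00062) in the first pair of fits. SPC25, from the other end of the complex, was at 37.9, 37.2 and 23.9 CPM in scramble and 46.3, 48.0 and 45.3 CPM in knockdown. All its knockdown values lay above all scramble values, and it was higher without scramble replicate 3 (0.31, adjusted p = 0.000579). The centromeric histone CENPA, at 42.2, 43.6 and 51.9 CPM in scramble and 37.6, 38.4 and 37.4 CPM in knockdown, was lower in that fit (-0.18, adjusted p = 0.0297). CENPE, the kinetochore kinesin, was at 81.4, 73.1 and 36.5 CPM in scramble and 57.3, 62.1 and 66.6 CPM in knockdown. Its log2 fold change was -0.32 (adjusted p = 0.000345) without scramble replicate 3 and -0.15 (adjusted p = 0.0675) when the GC and length correction was added to that fit. CENPF, a large kinetochore protein, was at 251, 239 and 106 CPM in scramble and 218, 238 and 245 CPM in knockdown and passed in neither fit.

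None of the 5 spindle checkpoint genes passed by edgeR with all 6 libraries, where 11.5% of all genes were called. At an unadjusted p under 0.05 there were 0 as well, against 25.4% of all genes. DESeq2 and limma-voom also called none of the 5. MAD2L1, the checkpoint effector that binds CDC20, was at 54.6, 55.2 and 32.3 CPM in scramble and 46.5, 48.9 and 40.0 CPM in knockdown. BUB1, the checkpoint kinase, was at 71.4, 67.4 and 32.8 CPM in scramble and 69.2, 70.9 and 69.2 CPM in knockdown. Without scramble replicate 3, MAD2L1 (-0.28, adjusted p = 0.00273 by edgeR), the kinase TTK (-0.29, adjusted p = 0.00516) and BUB1B (-0.16, adjusted p = 0.0467) were lower, while BUB1 (0.01) and BUB3 (0.06) did not pass. In that fit 23.8% of all genes were lower. The BUB1B call was lost when the GC and length correction was added (-0.12, adjusted p = 0.0917), and those of MAD2L1 and TTK were kept (adjusted p = 0.00425 and 0.0369). With all 6 libraries the correction called 0 of the 5 genes, against 34.5% of all genes. MAD2L1 was then at -0.18 (adjusted p = 0.175 by edgeR) and TTK at -0.23 (adjusted p = 0.0511).

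Condensin, topoisomerase and the chromosome surface had the lowest median shift of the roles in scramble replicate 3, at -1.19 on the log2 scale over 6 genes. TOP2A, the enzyme that untangles sister chromatids, was at 656, 624 and 274 CPM in scramble and 625, 701 and 703 CPM in knockdown. MKI67, the source of the Ki-67 proliferation stain, was at 287, 291 and 122 CPM in scramble and 341, 363 and 387 CPM in knockdown. TOP2A overlapped between the groups once scramble replicate 3 was left out (0.08, adjusted p = 0.127 by edgeR), and MKI67 did not (0.33, adjusted p = 1.32e-06). With all 6 libraries MKI67 was at 0.64 (SE 0.29, adjusted p = 0.204). The condensin subunit NCAPH was higher without scramble replicate 3 (0.36, adjusted p = 0.000167), NCAPG (-0.23, adjusted p = 0.00129) and SMC4 (-0.19, adjusted p = 0.00154) were lower, and SMC2 was at 0.08 (adjusted p = 0.243). With the GC and length correction in that fit SMC4 was no longer called (-0.06, adjusted p = 0.289), while TOP2A (0.19, adjusted p = 0.000115) and SMC2 (0.21, adjusted p = 0.0012) were called higher, as was MKI67 (0.34, adjusted p = 1.86e-07). With all 6 libraries the correction called TOP2A (0.27, adjusted p = 0.0485) and SMC2 (0.26, adjusted p = 0.03) higher and did not call MKI67 (0.58, adjusted p = 0.0631).

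Of the 4 cytokinesis genes, ANLN, the actin-binding anillin of the cleavage furrow, stood highest. It measured 98.9, 92.5 and 41.7 CPM in scramble and 115, 130 and 130 CPM in knockdown, without overlap. By edgeR the log2 values were 0.68 (SE 0.29, adjusted p = 0.173) with all 6 libraries, 0.38 (adjusted p = 7.21e-06) without scramble replicate 3 and 0.57 (adjusted p = 0.0043) with all 6 and the GC and length correction. PRC1, the bundler of the central spindle, was at 213, 199 and 233 CPM in scramble and 206, 199 and 200 CPM in knockdown, and passed in neither fit. RACGAP1, the partner of RhoGEF ECT2, did not pass either. ECT2 was lower without scramble replicate 3 (-0.13, adjusted p = 0.0133), a call that the GC and length correction removed (-0.01, adjusted p = 0.824).

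The transcription factors of the program did not pass in any of the 4 fits used here. FOXM1 was at 98.9, 109 and 146 CPM in scramble and 107, 99.1 and 101 CPM in knockdown. MYBL2, which encodes B-MYB, was at 94.7, 102 and 145 CPM in scramble and 104, 99.7 and 103 CPM in knockdown. Scramble replicate 3 was the highest library for both, and the knockdown values lay within or next to those of scramble replicates 1 and 2. Without scramble replicate 3 the log2 fold changes were -0.02 (SE 0.05) and 0.05 (SE 0.05), with adjusted p = 0.812 and 0.419 by edgeR.

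**Figure D4:**
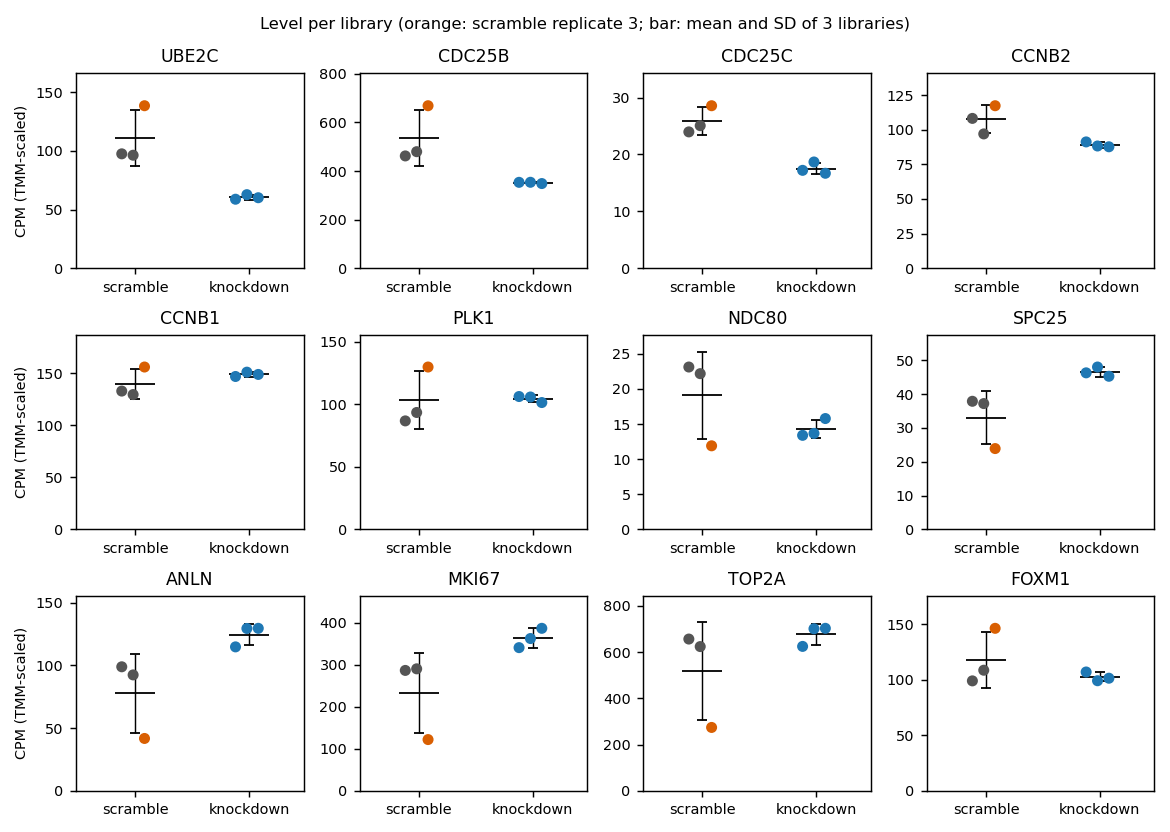
Each panel gives 1 gene, with CPM on a vertical axis that starts at 0 and the libraries grouped as scramble and knockdown. Points are libraries, orange for scramble replicate 3, and bars are the mean and SD of 3 libraries. UBE2C, CDC25B, CDC25C and CCNB2 have all knockdown points below all scramble points, and SPC25, ANLN and MKI67 have them above.

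Ratios of a pair of members within each library need no scaling between libraries. Pairs were chosen after the values were seen, from the same complex or step, and FPKM was used so that length is taken into account. Among all 1225 pairs of the 50 genes, the ratio did not overlap between the groups in 45.3%. With 3 libraries against 3 the exact permutation test, 2-sided, cannot give a p below 0.1, which is the p of each ratio below that did not overlap. The ratio of CCNB2 to CCNB1 was 1.14, 1.05 and 1.05 in scramble and 0.869, 0.818 and 0.825 in knockdown. For UBE2C to UBE2S it was 0.597, 0.568 and 0.569 in scramble and 0.427, 0.432 and 0.42 in knockdown, so that UBE2C differed more than its partner enzyme. For both ratios scramble replicate 3 lay near scramble replicate 2. That was not so for NCAPH to NCAPG, at 0.346, 0.362 and 0.797 in scramble and 0.553, 0.492 and 0.555 in knockdown, where the groups overlapped and scramble replicate 3 lay above every other library. The ratio of CDC25C to CDC25B, at 0.0721, 0.0735 and 0.0599 in scramble and 0.068, 0.0736 and 0.067 in knockdown, overlapped as well.

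The subunits of the NDC80 complex separated in the same way. The ratio of NDC80 to SPC25 was 0.376, 0.367 and 0.307 in scramble and 0.178, 0.176 and 0.215 in knockdown, a log2 difference of -0.88, and that of NUF2 to SPC25 was 0.777, 0.72 and 0.72 in scramble and 0.443, 0.504 and 0.449 in knockdown. The ratio of NDC80 to NUF2, which pair with each other, overlapped (0.473 ± 0.0432 in scramble and 0.41 ± 0.0651 in knockdown, SD, n = 3 each). MKI67 relative to TOP2A was 0.204, 0.218 and 0.209 in scramble and 0.256, 0.244 and 0.26 in knockdown. INCENP relative to AURKB was 0.283, 0.262 and 0.221 in scramble and 0.38, 0.34 and 0.405 in knockdown, without overlap, whereas CDCA8 relative to AURKB overlapped.

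**Figure D5:**
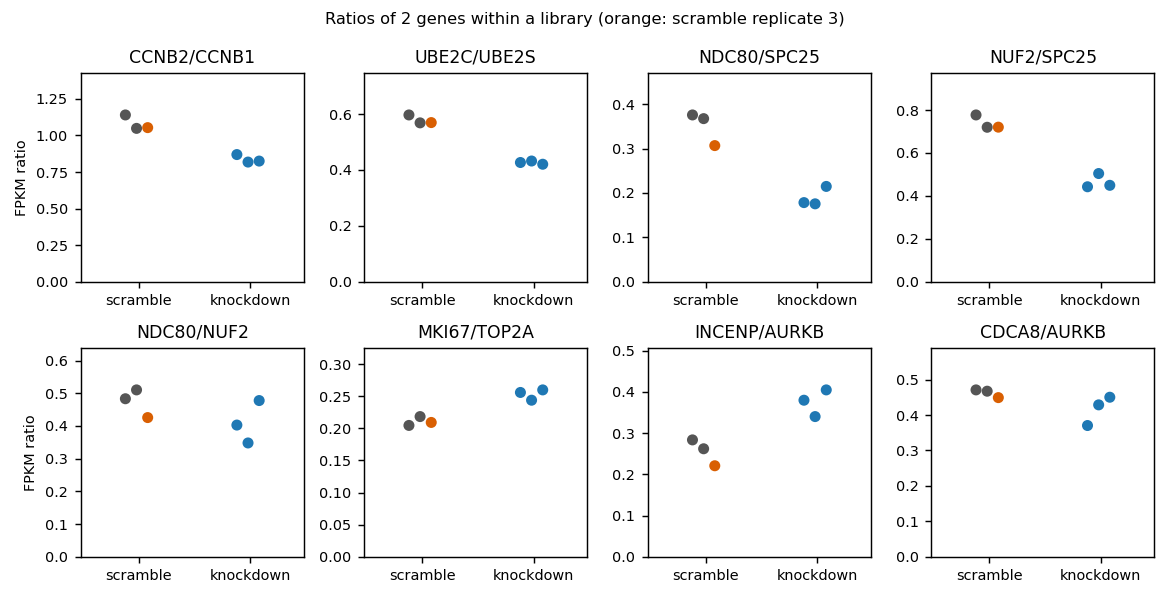
Each panel gives the FPKM ratio of a pair of genes in each library, on an axis that starts at 0, with scramble replicate 3 in orange. CCNB2/CCNB1, UBE2C/UBE2S, NDC80/SPC25 and NUF2/SPC25 are lower in all 3 knockdown libraries, MKI67/TOP2A and INCENP/AURKB are higher, and NDC80/NUF2 and CDCA8/AURKB overlap.

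By FPKM, which allows levels of different genes to be compared, UBE2S was the highest of the 50 in both groups, at a mean of 207 in scramble replicates 1 and 2 and 165 in knockdown. CDC25B followed with 163 and 114. UBE2C was the third in scramble replicates 1 and 2, at 120, above TOP2A at 115. In knockdown UBE2C was the fifth at 70.5, below TOP2A at 114 and PTTG1 at 72.2. The knockdown values of PTTG1 and UBE2C overlapped, as did those of CDC25B and TOP2A. CDC25A was the lowest in both groups, at 2.28 and 2.68 FPKM. Of the 35 members with several listed transcripts, the mean transcript length that RSEM weights by isoform overlapped between the groups in all but MYBL2, and group means differed by -1.9% to 0.683%. The share of all genes without overlap in this length was not computed, so whether 1 of 35 is few cannot be told.

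Other genes of the pathway, listed apart from the 50, numbered 113, and all were tested. With all 6 libraries 3 of them rose and 0 fell by edgeR, against 11.5% called among all genes. At an unadjusted p under 0.05 there were 10, 5 of them higher, and DESeq2 and limma-voom called 3 higher and 0 lower as well. KIF20A, the kinesin that carries the passenger complex to the midzone, rose from 28.2, 28.0 and 30.9 CPM in scramble to 50.7, 46.9 and 50.2 CPM in knockdown (0.76, SE 0.15, adjusted p = 0.0109). NSL1, a subunit of the MIS12 kinetochore complex, rose from 34.5, 36.5 and 24.7 CPM to 61.9, 60.7 and 57.5 CPM (0.91, adjusted p = 0.0123), and the cohesin subunit gene SMC1A rose from 159, 167 and 95.9 CPM to 254, 240 and 250 CPM (0.82, adjusted p = 0.0356). None of these 3 genes overlapped between the groups. Each call was lost without knockdown replicate 1, 2 or 3, with adjusted p of 0.0617 to 0.137. That of SMC1A was also lost without scramble replicate 1 (0.0537) and that of KIF20A without scramble replicate 2 (0.0511). WEE1, the kinase that opposes CDC25, did not pass with all 6 libraries (-0.54, adjusted p = 0.0643) and was lower without scramble replicate 3 (-0.58, adjusted p = 5.85e-06). The same held for its relative PKMYT1 (-0.44 and -0.24, adjusted p = 0.173 and 0.00202), for ANAPC10, a subunit of the anaphase promoting complex (-0.61 and -0.74, adjusted p = 0.0854 and 6.13e-05), and for the kinesin KIF2C (-0.56 and -0.38, adjusted p = 0.0773 and 6.89e-06). Without scramble replicate 3, 26 of the 113 were higher and 30 lower, against 25.7% and 23.8% of all genes. Among the 9 genes of the MuvB core and its partners 2 were higher and 1 lower in that fit.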

How the data were processed

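Polyadenylated RNA of 6 libraries was read from 1 table per library. Values are RSEM expected counts, deposited by the authors as estimates that need not be whole, FPKM, scaled by the authors for length and depth, and an isoform-weighted transcript length, per the file headers. BWA, Bowtie2, RSEM and build hg19 are named in the submitters' processing notes. The sources used here do not give their roles and versions or the strand setting, so whether reads of overlapping genes were told apart is not known. Genes missing from a table were set to 0 counts. Symbols were matched by Entrez ID to RefSeq (20727 of 20824), promoters came from RefSeq on GRCh38.p14, and GC content from GENCODE transcripts.

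Counts were rounded and tested with edgeR 4.0.16 in R 4.3.3: filterByExpr (minimum count 10, minimum total 15), TMM, glmQLFit and glmQLFTest without covariates, with adjusted p under 0.05 over 14812 genes. The SE is the log2 fold change divided by the square root of F. Alternatives used RLE and upper-quartile scaling, no filter, a filter of 1 CPM in 3 libraries, a replicate block, a spline per library (5 degrees of freedom) on GC content and log length for 14231 genes, each library left out, DESeq2 1.42.0 and limma-voom 3.58.1. The spline fit without scramble replicate 3 and the ratios were chosen after seeing the data. Only the uncorrected edgeR fit of 6 libraries was run on simulated counts. These held no GC-dependent shift of 1 library, so that run cannot speak to scramble replicate 3 or to the other fits. The members and lists were chosen with earlier results of these data known. All 50 genes may be named. Values in every library are given for called members and a set of 25, and those of other members were chosen after their values were seen. Of each other list, up to 4 called and 2 uncalled genes with the smallest p may be named. Tables were made with Python 3.11.15 and figures with matplotlib 3.10.9.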

Additional observations from a re-analysis of the deposited data

How the results depend on the processing

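Across all genes 1708 were called, and 4907 with the GC and length correction, 4090 with that correction and the replicate block, 7285 with the correction and without scramble replicate 3 (an alternative chosen after seeing the data), and 729 to 7439 when single libraries were left out. For the 50 mitosis and G2 genes, 2 calls became 20, 10 and 31 in the first 3 of these settings, and 0 to 29 without single libraries. There was 1 call each by limma-voom, with no filter on low counts and with the replicate block. Of all genes, 1659 of 14812, 1725 of 20750 and 1654 of 14812 were called there. The 0 came from leaving out any knockdown library (3 at an unadjusted p under 0.05 by edgeR), and the 29 from leaving out scramble replicate 3. Without scramble replicate 2 there was 1, beside 1252 of 15001 genes. The 3 calls among other mitosis genes became 23 with the GC and length correction (20.5%, against 34.5% of all genes) and 15 with the block added to it. They became 58 with the correction and without scramble replicate 3 (51.8%, against 50.5%). Without single libraries they were 0 to 56, and the 56 were 49.6%, against 49.5% of all genes. With the correction and the replicate block, 4090 of 14231 genes were called, beside 10 of 50 members and 15 of 112 other mitosis genes.

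Same-numbered libraries did not deviate together (correlations of -0.024, -0.018 and -0.023). The scramble deviations were taken from a mean that includes scramble replicate 3, which stood apart. These values therefore cannot tell whether the numbers pair the samples. The replicate block left 1654 genes called, and with it CDC25B was no longer called (adjusted p = 0.074).

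Some log2 fold changes turned in sign, all of genes not called with all 6 libraries. With the GC and length correction, and with the block added to it, CCNA2 was at -0.034 and -0.030, CCNB1 at -0.040 and -0.014, NCAPG at -0.082 and -0.078 and MYBL2 at 0.011 and 0.012. With the correction and without scramble replicate 3, CCNA2 was at -0.091, BUB1B at -0.12, CDCA3 at 0.00032, NCAPG at -0.13, SMC4 at -0.057, ECT2 at -0.012 and MYBL2 at 0.018. Upper-quartile scaling gave CDC25A -0.031, PLK1 -0.022 and GTSE1 -0.035, and CENPE was at 0.040 by limma-voom and 0.033 with the block. When single libraries were left out, CCNA2 ranged from -0.12 to 0.21, CDK1 from -0.0096 to 0.33, CDC25A from -0.21 to 0.33, PLK1 from -0.11 to 0.21, GTSE1 from -0.086 to 0.16, BIRC5 from -0.041 to 0.30, BUB1B from -0.16 to 0.35, MAD2L1 from -0.28 to 0.046, TTK from -0.29 to 0.028 and CENPE from -0.32 to 0.17. CENPF ranged from -0.067 to 0.43, ESPL1 from -0.034 to 0.25, CDCA3 from -0.30 to 0.047, NCAPG from -0.23 to 0.20, SMC4 from -0.19 to 0.32, ECT2 from -0.13 to 0.32 and MYBL2 from -0.28 to 0.053. The cause was not tested.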
